A study of Rattus norvegicus with 4 samples.

Results

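The proteasome is the large protease that degrades proteins tagged with ubiquitin. Its barrel-shaped core, the 20S particle, is built of rings of alpha and beta subunits and holds the proteolytic sites inside, on beta subunits. The 19S cap recognises tagged proteins, removes the ubiquitin and unfolds and feeds the substrate into the core with a ring of ATPases. Dedicated chaperones assemble both parts, and in many mammalian cells the subunit genes are activated together by the transcription factor NRF1, the product of Nfe2l1. The genes described here are those of the constitutive particle, without the 3 immunoproteasome subunits Psmb8, Psmb9 and Psmb10 that replace the catalytic ones in immune and interferon-treated cells.

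Members were all genes whose symbol starts with Psma, Psmb, Psmc, Psmd, Psmf or Psmg, apart from those 3 genes, and each was read by its brightest probe set with exactly 1 annotated symbol. The rule took 39 of the 14217 genes named on the array, which were 7 genes of the 20S alpha ring, 6 of the 20S beta ring, 6 ATPases of the 19S cap, 11 other subunits of the cap, 8 assembly chaperones or inhibitors, and Psmc3ip. Psmc3ip shares the prefix but encodes a partner of meiotic recombinases and is no subunit, so it is given apart where it matters. The catalytic gene Psmb6 had its probe set annotated to a second gene as well, and it is not a member for that reason. All 39 members had a signal above the floor on all 4 arrays, where the floor was the median signal of all non-control probe sets, 100.5. The lowest signal among the 38 members other than Psmc3ip was 406.7, and 35 members were above 1000 on every array.

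The study worked with granulosa cells, which surround the oocyte in the follicle and make estradiol, taken at an age of 23 to 25 days from female rats of the Sprague-Dawley strain that had received estradiol, and grown without serum. Adenovirus was on the cells for 4 h, and the 24 h that followed were with or without follicle-stimulating hormone (FSH, 100 ng/ml), the pituitary hormone that drives follicle growth. The 4 groups were FOXOA3 FSH, given an always active FOXO1, a transcription factor otherwise held back by growth signals, and the hormone, FOXOA3-mDBD FSH, given the mutant of it in the DNA-binding part and the hormone, GFP FSH, given a vector for green fluorescent protein and the hormone, and GFP vehicle, with that same control vector and no hormone. Each group had 1 array. There was therefore no replicate, no error and no test for any difference, and the 6 comparisons drawn from the 4 arrays share arrays and are not independent of each other. No uninfected cells were among the groups, so that the response to infection itself was in every group. How many cultures or animals were pooled for an array is not stated in the labels.

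The deposited MAS5 intensity values had a trimmed mean (2% off each end) between 500.1 and 500.2 on every array, and on values set to a common mean a difference in total RNA per cell would not show. The poly-A spike transcripts, which are bacterial RNAs put into the labelling reaction, averaged 22.6 (geometric mean) on FOXOA3 FSH, 539.4 on FOXOA3-mDBD FSH, 394.6 on GFP FSH and 21.4 on GFP vehicle. The arrays of FOXOA3-mDBD FSH and GFP FSH were thus alike in spike signal, as were those of FOXOA3 FSH and GFP vehicle, and the comparisons across these pairs also cross that difference. For beta-actin the 3' probe set exceeded the 5' one by 9.79, 10.7, 12.0 and 5.15 times, with the arrays in that order. Of 7 granulosa markers 6 were named on the array, all above the floor on all arrays, with a summed signal of 26368 on FOXOA3 FSH, 12833 on FOXOA3-mDBD FSH, 61050 on GFP FSH and 21231 on GFP vehicle. Of 5 theca and stroma markers, 3, 2, 3 and 3 were above the floor on these arrays in turn, with sums of 20760, 563.8, 956.2 and 7024, of which Cyp17a1, the theca enzyme, stayed below the floor on all 4. Of 4 leukocyte markers, at most 2 were above the floor on an array, and the pan-leukocyte gene Ptprc was below it on all 4. Lyz2 was above it on all 4, at 1266, 511.7, 592.2 and 376.1 in the same order, and Cd74 only on FOXOA3 FSH, at 123.7. The 3 endothelial markers on the array summed to 490.7 or less and the 3 oocyte markers to 754.0 or less. Of these, the endothelial Kdr (193.7, 236.0, 123.3 and 376.3) and the oocyte gene Gdf9 (378.9, 477.5, 262.3 and 130.3) were above the floor on all 4 arrays. In bulk RNA, fewer cells of a type and less RNA per cell cannot be told apart.

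Promoter windows of RefSeq genes (build GRCr8, 250 bases before to 50 after the start) were found for 35 members by gene ID. Psma7, Psmd6, Psmd12 and Psmd14 had no entry. The 250 bases before the start are shown for the 2 members that were at least 2-fold higher with FSH, Psmb1 and Psmc5, for 2 members with a match to the antioxidant response element core, to which NRF1 binds as a partner of small Maf proteins, Psmb5 and Psmb2, and for the 2 members with the lowest ratio of FOXOA3-mDBD FSH to GFP FSH, Psmg4 and Psmb3. Their positions are chr1:65134771-65135020 (minus strand) for Psmb1, chr10:91687303-91687552 (plus strand) for Psmc5, chr15:32047380-32047629 (minus strand) for Psmb5, chr5:144254808-144255057 (plus strand) for Psmb2, chr17:30923374-30923623 (minus strand) for Psmg4 and chr10:83193537-83193786 (plus strand) for Psmb3. Capitals mark matches on either strand to the antioxidant response element core (TGACNNNGC), the CCAAT box (CCAAT, read as ATTGG on the other strand) or the FOXO core (GTAAACA).
Psmb1: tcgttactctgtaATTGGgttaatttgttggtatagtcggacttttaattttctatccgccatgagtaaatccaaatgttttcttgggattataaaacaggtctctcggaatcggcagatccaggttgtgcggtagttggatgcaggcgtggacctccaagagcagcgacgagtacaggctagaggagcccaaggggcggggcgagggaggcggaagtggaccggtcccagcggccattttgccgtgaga
Psmc5: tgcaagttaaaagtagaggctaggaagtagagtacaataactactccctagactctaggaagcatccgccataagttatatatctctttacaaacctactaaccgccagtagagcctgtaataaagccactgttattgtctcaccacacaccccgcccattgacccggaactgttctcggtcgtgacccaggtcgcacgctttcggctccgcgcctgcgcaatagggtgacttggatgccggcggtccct
Psmb5: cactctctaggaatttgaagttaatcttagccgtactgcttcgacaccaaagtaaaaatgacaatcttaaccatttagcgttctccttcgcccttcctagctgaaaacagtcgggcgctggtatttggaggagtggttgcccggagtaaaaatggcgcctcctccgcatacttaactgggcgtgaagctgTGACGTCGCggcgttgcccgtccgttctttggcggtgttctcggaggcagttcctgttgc
Psmb2: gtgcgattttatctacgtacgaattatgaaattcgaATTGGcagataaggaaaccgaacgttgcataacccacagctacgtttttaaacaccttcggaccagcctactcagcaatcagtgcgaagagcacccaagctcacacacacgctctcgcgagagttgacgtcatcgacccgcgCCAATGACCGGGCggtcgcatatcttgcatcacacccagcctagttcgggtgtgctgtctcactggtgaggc
Psmg4: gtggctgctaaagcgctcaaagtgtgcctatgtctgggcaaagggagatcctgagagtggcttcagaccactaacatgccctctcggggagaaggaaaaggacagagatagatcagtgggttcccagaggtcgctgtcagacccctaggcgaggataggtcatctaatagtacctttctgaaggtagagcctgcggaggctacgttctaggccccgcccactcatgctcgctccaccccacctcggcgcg
Psmb3: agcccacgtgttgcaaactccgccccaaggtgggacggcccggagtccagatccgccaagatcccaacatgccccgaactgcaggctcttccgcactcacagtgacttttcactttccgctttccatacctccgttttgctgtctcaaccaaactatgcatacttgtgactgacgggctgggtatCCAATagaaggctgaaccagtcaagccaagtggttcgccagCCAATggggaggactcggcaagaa

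In the whole windows, the CCAAT box was found in 19 of 35 members (54.3%), against 38.3% of the 8719 windows of genes measured on any array and 37.7% of all 27457 windows. The antioxidant response element core was found in 6 of 35 (17.1%), against 14.5% of the windows of measured genes and 12.2% of all. These 6 were Psma3, Psmb2, Psmb5, Psmd1, Psmd3 and Psmd9. In Psmb2 it shares 1 base with a CCAAT box. The FOXO core was in 0 of 35 windows, against 2.41% and 3.76%, which says only that these letters are not in these windows. Matches are letters and not sites of binding.

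With FSH, in GFP FSH against GFP vehicle, 33 of 39 members had a higher signal, where 49.8% of the 9578 measured genes did, and 6 a lower one, where 50.2% did. The median member was 1.51-fold higher, a log2 ratio of 0.60, beside -0.00 for all measured genes, and 82.9% of all genes lay below that median. At 1.5-fold, 21 members were higher (17.7% of all genes were) and 1 was lower (21.7% of all genes). At 2-fold there were only 2 members higher, against 6.84% of all genes, and 0 lower, against 11.1%. The shift was thus broad and small. Of the 6 granulosa markers 5 were higher in the same comparison and 1 lower (median log2 ratio 1.32). Of the 3 theca and stroma markers measured there all were lower. The arrays also differ in spike signal and in the 3' to 5' ratio of beta-actin, 12.0 on GFP FSH and 5.15 on GFP vehicle, while that of GAPDH was 2.46 on GFP FSH and 2.32 on GFP vehicle. The part of these in the shift of the members was not tested.

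**Figure D1:**
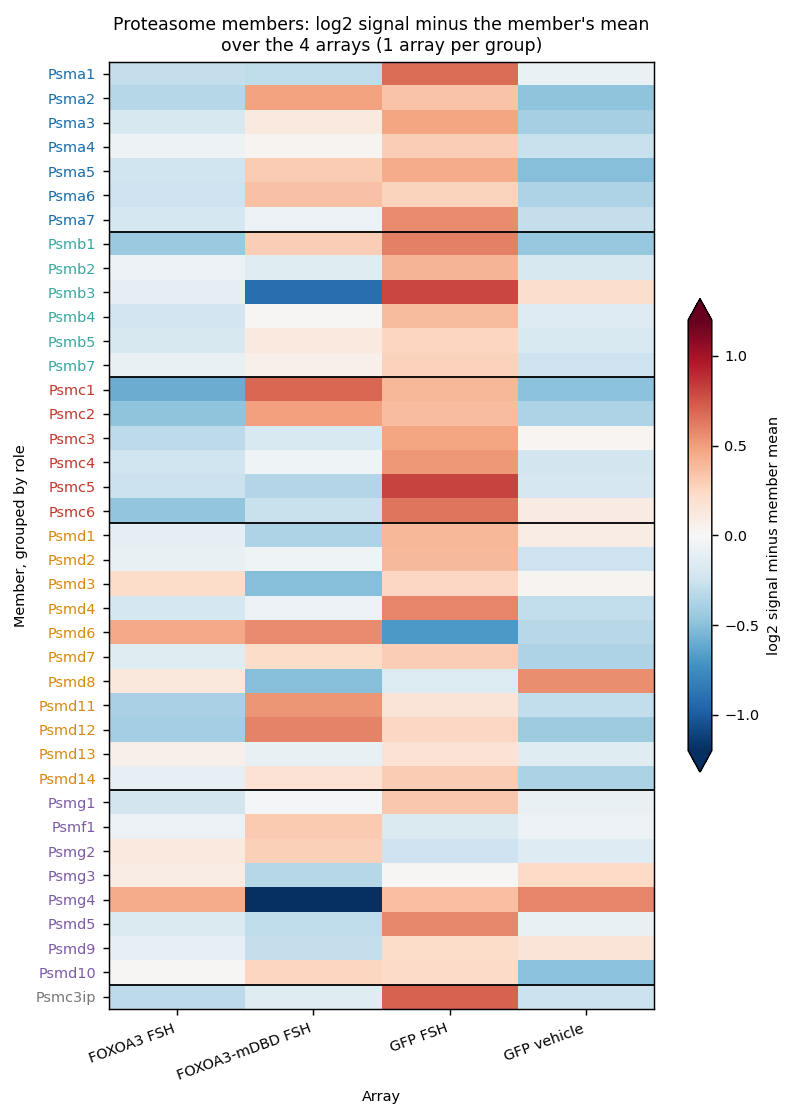
Colour gives, for each of the 39 members (rows, grouped by role and separated by lines) on each of the 4 arrays (columns), the log2 signal minus the member's mean over the 4 arrays, with red above and blue below that mean. The FOXOA3-mDBD FSH column is highest for 10 of 39 members (26.9% of all genes measured on any array) and lowest for 10 (42.6%), and the GFP FSH column is highest for 26 (27.4%).

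All 7 genes of the 20S alpha ring, the outer rings that gate the core, were higher with FSH, with log2 ratios from 0.56 for Psma4 to 0.96 for Psma5 and a median of 0.83. Psma5 had a signal of 7652 on GFP FSH and 3946 on GFP vehicle, a 1.94-fold difference. Its FOXOA3 FSH signal was 4760 and its FOXOA3-mDBD FSH signal was 6964. Psma2 read 3753 on FOXOA3 FSH, 6627 on FOXOA3-mDBD FSH, 6022 on GFP FSH and 3388 on GFP vehicle. The arrays thus fell into a high and a low pair for Psma2, in the same way as for the spike transcripts. Psma1 did not follow that split, at 3226 on FOXOA3 FSH, 3182 on FOXOA3-mDBD FSH, 6273 on GFP FSH and 3730 on GFP vehicle, where GFP FSH alone stood high.

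All 6 beta ring genes were also higher with FSH (median log2 ratio 0.57). Psmb5, which carries the chymotrypsin-like activity and is the target of bortezomib, had the smallest ratio of the ring, with signals of 7640, 9413, 10396 and 7671 on FOXOA3 FSH, FOXOA3-mDBD FSH, GFP FSH and GFP vehicle. Psmb7, with the trypsin-like activity, read 5759, 6398, 7418 and 5174 in the same order. For both catalytic genes GFP FSH was the highest array, and it was within 1.44-fold of GFP vehicle. Psmb1, a structural subunit, was 2.09-fold higher with FSH, the largest ratio of all members, and read 3358, 5637, 6976 and 3332. Psmb3, another structural subunit, read 2975, 1718, 5596 and 3702, so that its FOXOA3-mDBD FSH signal was the lowest.

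The 6 ATPases of the cap were higher with FSH too (median 0.74, from 0.45 for Psmc3 to 1.01 for Psmc5). Psmc5 was 2.02-fold higher with FSH and read 2668 on FOXOA3 FSH, 2497 on FOXOA3-mDBD FSH, 5576 on GFP FSH and 2760 on GFP vehicle. Only GFP FSH stood apart for Psmc5. Psmc1, whose tail helps to open the core, read 3864, 9382, 7686 and 4129 in that order, and Psmc2 8567, 16909, 15475 and 9263. For both, FOXOA3-mDBD FSH was as high as GFP FSH or higher, and the other arrays were low. Psmc3 read 4032, 4426, 6981 and 5111, and Psmc6 read 2011, 2314, 4350 and 2985, each highest on GFP FSH.

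Of the 11 other cap subunits 9 were higher with FSH and 2 lower, with a median of 0.45. Psmd4, a ubiquitin receptor, led them at 1.83-fold higher, with 2299, 2532, 3991 and 2177 on FOXOA3 FSH, FOXOA3-mDBD FSH, GFP FSH and GFP vehicle. Psmd14, the deubiquitinase of the lid, was 1.61-fold higher, with 5581, 6733, 7411 and 4605. The 2 lower genes were the lid subunits Psmd8, at 2242, 1442, 1834 and 3021, and Psmd6, at 6020, 6485, 2724 and 3481. Psmd8 was highest on GFP vehicle, and Psmd6 was high with both FOXO1 vectors and lowest on GFP FSH, unlike any other subunit of the core or cap. Psmd12 read 2020, 4051, 3189 and 1995, and Psmd3 read 1847, 1111, 1886 and 1621, with FOXOA3-mDBD FSH the highest array for Psmd12 and the lowest for Psmd3.

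Of the chaperones and inhibitors 4 of 8 were higher with FSH and 4 lower (median log2 ratio -0.01), and 2 were at least 1.5-fold higher. The chaperones of the cap's ATPase ring Psmd10 and Psmd5 were 1.65-fold and 1.59-fold higher with FSH, and Psmd9 was at 1.05-fold. Psmd10, also known as gankyrin, read 932.7 on FOXOA3 FSH, 1102 on FOXOA3-mDBD FSH, 1083 on GFP FSH and 655.8 on GFP vehicle. Among the chaperones of the alpha ring, Psmg1 was 1.33-fold higher. Psmg2, its partner, read 1612, 1805, 1250 and 1330, Psmg3 read 1447, 1070, 1365 and 1600, and Psmg4 read 1462, 406.7, 1380 and 1611. Psmf1, an inhibitor of the core in vitro, read 1886, 2451, 1746 and 1884. None of these 4 was over 1.18-fold apart between GFP FSH and GFP vehicle, and Psmg4 stood out by its low FOXOA3-mDBD FSH signal. Psmc3ip, which is no proteasome subunit, read 269.9, 303.5, 548.5 and 279.8 and was 1.96-fold higher with FSH, just short of the 2-fold mark that Psmc5 passed.

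**Figure D2:**
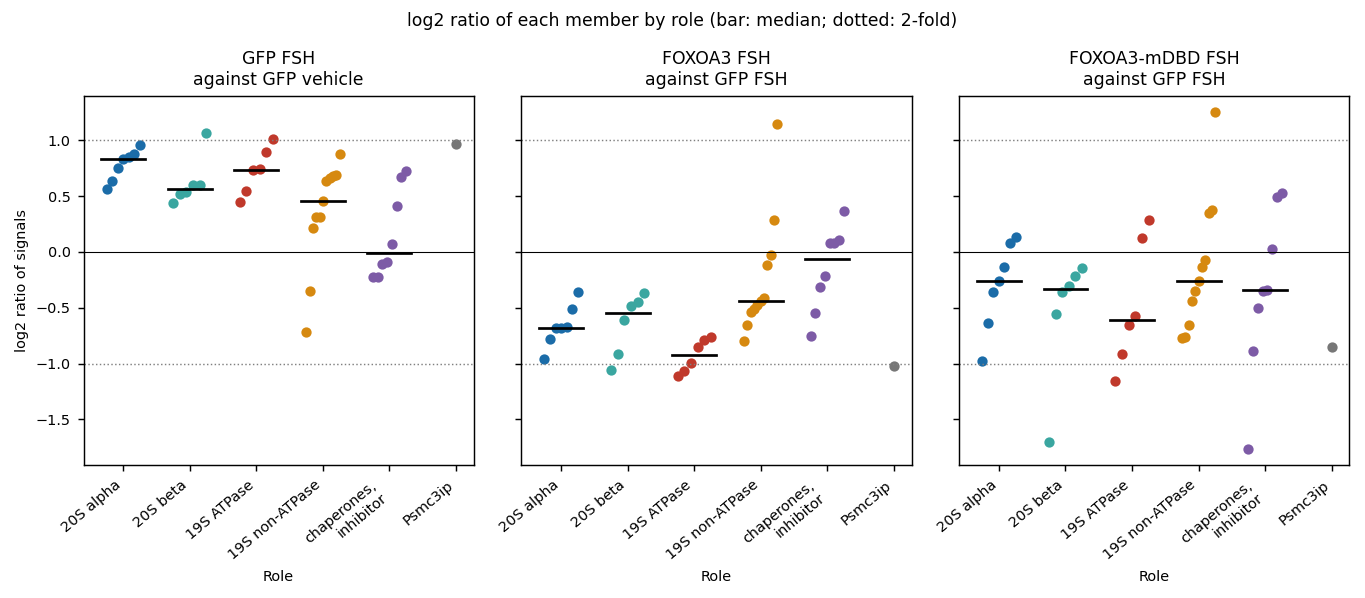
Each point is the log2 ratio of 1 member in 3 comparisons (panels), set out by role, with a bar at the median of the role and dotted lines at 2-fold. With FSH the medians are 0.83, 0.57, 0.74 and 0.45 for the 4 classes of subunits and -0.01 for chaperones and inhibitors.

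Active FOXO1 was set against the control vector in FOXOA3 FSH against GFP FSH, where 33 of 39 members had a lower signal (47.6% of the 9941 measured genes) and 6 a higher one (52.4%). The median member was 1.45-fold lower (log2 ratio -0.54, beside 0.04 for all genes). In the same comparison 5 of 6 granulosa markers were at least 2-fold lower (median -1.37), and all 3 measured theca and stroma markers were at least 2-fold higher (median 4.69). The arrays also differ in spike signal, and the part of these in the members' values was not tested. At 1.5-fold, 18 members were lower, against 18.1% of all genes, and 1 higher, against 22.5%. At 2-fold, 4 were lower (6.99% of all genes) and 1 higher (11.1%). Of the 5 role groups the ATPases had the lowest median, -0.92, and all 6 were at least 1.5-fold lower. Psmc6 was 2.16-fold lower (log2 ratio -0.87 over the mean of its probe sets), Psmc5 2.09-fold, Psmb1 2.08-fold and Psmc3ip 2.03-fold, and Psmc1 came next at 1.99-fold. The medians were -0.68 for the alpha ring, -0.54 for the beta ring, -0.44 for the other cap subunits and -0.07 for chaperones and inhibitors. The member that was 2-fold higher was Psmd6, at 2.21-fold, followed by Psmg2 at 1.29-fold and Psmd8 at 1.22-fold.

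This comparison and the one with FSH use the same GFP FSH array, so a high reading on that array alone would give both shifts, and the same 33 members were higher on GFP FSH than on either of the other arrays. Of all 10407 genes measured on any array, 37.2% were. FOXOA3 FSH against GFP vehicle leaves that array out and compares arrays of like spike signal. Their 3' to 5' ratios of beta-actin differ, at 9.79 on FOXOA3 FSH and 5.15 on GFP vehicle. In this comparison the median log2 ratio was 0.00, beside 0.01 for all genes, with 20 members higher (51.1% of all genes) and 19 lower (48.9%). No member was 2-fold apart, where 5.32% of the 9904 measured genes were higher and 4.01% lower, and only Psmd6 passed 1.5-fold, at 1.73-fold higher, where 12.7% of all genes did. Psmd10 (1.42-fold) and Psmd14 (1.21-fold) followed at the high end, and Psmc6 (1.48-fold lower), Psmd8 (1.35-fold) and Psmc3 (1.27-fold) lay at the low end. Members are read here by the brightest probe set, and the places of Psmd14 and Psmc6 depend on it. The second probe set of Psmd14 was at a log2 ratio of 0.75, past 1.5-fold. The other probe sets of Psmc6 were at -0.20 and -0.11. Within 1.5-fold were 38 of the 39 members and 7529 of the 9904 measured genes. The spread of the members' log2 ratios had an SD of 0.25, against 0.66 for all measured genes and 0.58 for the 8113 genes above the floor on all arrays. The proteasome signals were thus close on these arrays, which differ in both hormone and vector, and in the comparison with FSH the hormone and the spike difference cannot be told apart.

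**Figure D3:**
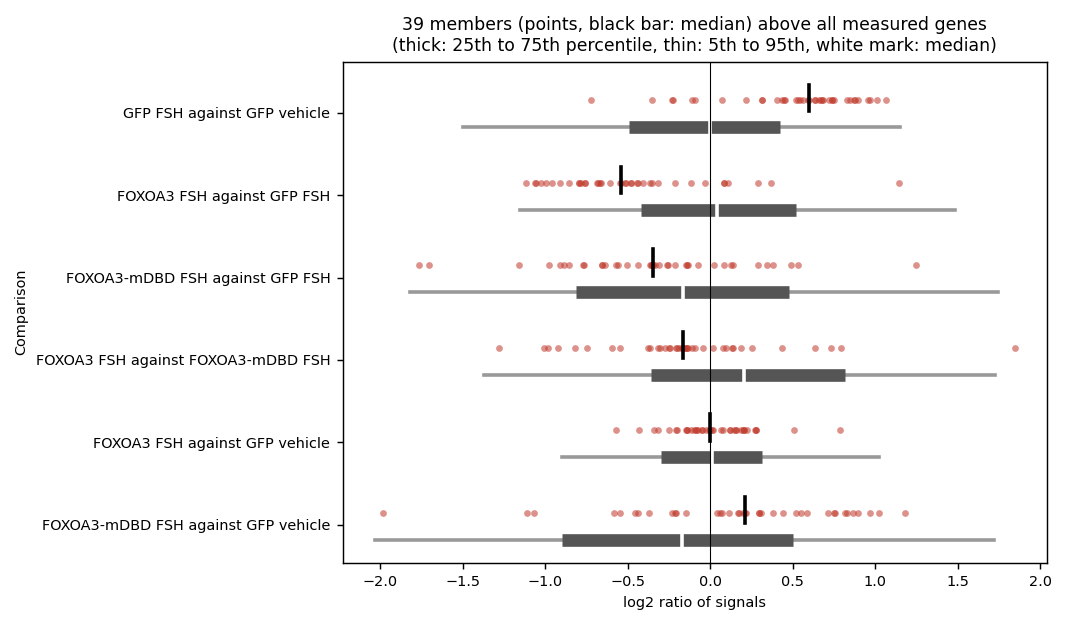
For each of the 6 comparisons (rows), points give the log2 ratios of the 39 members with a black bar at their median, above the percentiles of all measured genes (thin line 5th to 95th, thick line 25th to 75th, white mark median). The members' median is 0.60 with FSH, -0.54 for FOXOA3 FSH against GFP FSH and 0.00 for FOXOA3 FSH against GFP vehicle.

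The DNA-binding mutant was set against the control vector next. In FOXOA3-mDBD FSH against GFP FSH, on arrays of like spike signal, 29 of 39 members were lower, against 57.1% of the 9748 measured genes, 10 were higher, against 42.9%, and the median was -0.35 beside -0.16 for all genes. At 1.5-fold, 12 members were lower, against 32.9% of all genes, and 1 higher, against 21.7%. At 2-fold, 3 members were lower, against 19.1%, and 1 higher, against 12.5%. The share at 1.5-fold lower was near that of all genes. All 6 granulosa markers were at least 2-fold lower in this comparison (median log2 ratio -2.15), and of the 3 theca and stroma markers measured 2 were lower and 1 higher (median -0.76). Their part in the members' values was not tested. Psmg4 was 3.39-fold lower, Psmb3 3.26-fold and Psmc5 2.23-fold, and Psmd6 was 2.38-fold higher, with Psmg2 at 1.44-fold and Psmf1 at 1.40-fold higher. Psma1, at 1.97-fold lower, lay just inside 2-fold.

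In some roles members went in both directions with the mutant. Among the ATPases Psmc5 was 2.23-fold lower and Psmc6 1.88-fold lower, while Psmc1 was 1.22-fold higher and Psmc2 1.09-fold higher. Among the alpha ring genes Psma1 and Psma7 were 1.97-fold and 1.55-fold lower, while Psma2 and Psma6 were 1.10-fold and 1.06-fold higher. Among the other cap subunits Psmd1, a scaffold of the base, and Psmd3, of the lid, were both 1.70-fold lower. The lid subunits Psmd11 and Psmd12 were 1.30-fold and 1.27-fold higher, but the second probe set of Psmd11 was lower, at a log2 ratio of -0.82. The SD of the members' log2 ratios was 0.58, against 0.41 for the comparison with FSH, with 1.14 for all measured genes here and 0.88 there. The members thus spread less than all genes in both comparisons, and all genes also spread more with the mutant than with FSH.

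FOXOA3-mDBD FSH against GFP vehicle, which crosses the spike difference, had 27 of 39 members higher, against 43.0% of the 9861 measured genes, 12 lower, against 57.0%, and a median of 0.21 beside -0.17. At 1.5-fold, 11 members were higher, against 22.6% of all genes, and 3 lower, against 34.5%. At 2-fold, 2 members were higher, against 13.0%, and 3 lower, against 22.5%. Psmc1 was 2.27-fold higher, Psmd12 2.03-fold and Psma2, short of the mark, 1.96-fold. Psmg4 was 3.96-fold lower, Psmb3 2.16-fold and Psmd8 2.10-fold. FOXOA3 FSH against FOXOA3-mDBD FSH had a median of -0.16 beside 0.21 for all genes. After quantile normalization it was 0.019 beside 0.13, so that its sign was not settled. The members' median minus that of all genes lay between -0.40 and -0.11 over all alternatives. Without a change of processing, 27 of 39 were lower in this comparison, against 39.7% of 10092 measured genes, and 12 higher, against 60.2%. At 1.5-fold, 4 were higher, against 33.6%, and 7 lower, against 18% of all genes. At 2-fold, 2 were lower, against 9.24%, namely Psmc1 at 2.43-fold and Psmd12 at 2.01-fold, with Psmc2 next at 1.97-fold. The 1 member higher at 2-fold, against 19% of all genes, was Psmg4, at 3.59-fold, and Psmb3 (1.73-fold) and Psmd3 (1.66-fold) came next.

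In 22 of 39 members both FOXOA3-mDBD FSH and GFP FSH were above both FOXOA3 FSH and GFP vehicle, which is the order of the spike transcripts, against 1669 of the 10407 genes measured on any array. GFP FSH was the highest of the 4 arrays in 26 members, against 27.4% of these genes, and GFP vehicle the lowest in 16, against 20.8%. The 10 members highest on FOXOA3-mDBD FSH, where 26.9% of these genes were highest, were Psma2, Psma6, Psmc1, Psmc2, Psmd6, Psmd10, Psmd11, Psmd12, Psmf1 and Psmg2. These 10 of 39 were near the share of all genes. Psmd11 is among them by its brightest probe set, while its second probe set was lowest on that array, at 2677. The 10 lowest there, where 42.6% of these genes were lowest, were Psma1, Psmb3, Psmc5, Psmd1, Psmd3, Psmd5, Psmd8, Psmd9, Psmg3 and Psmg4. The part of the spike difference in these orders was not tested.

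Other probe sets give a check within the arrays for the 4 members that had at least 2 of them above the floor on all arrays, Psmc6, Psmd7, Psmd11 and Psmd14. With FSH all such probe sets of these 4 members were higher, from 0.32 for the second probe set of Psmd14 to 0.74 for the second of Psmd7 on the log2 scale. Probe sets below the floor on any array were left out of this check. Among those left out, the second probe set of Psmd9 read 192.1 on GFP vehicle and 78.4 on GFP FSH, below the floor, and so was lower with FSH. In FOXOA3 FSH against GFP FSH the probe sets had the same sign for 3 of 4 members, and in FOXOA3-mDBD FSH against GFP FSH for 1 of 4. The brightest probe set of Psmd11 read 6728 on FOXOA3-mDBD FSH and 5172 on GFP FSH, and the second read 2677 and 4724. Both had about the same GFP vehicle signal, 3777 and 3682. For Psmd14 the second probe set read 2762 on FOXOA3 FSH, 2830 on FOXOA3-mDBD FSH, 2054 on GFP FSH and 1648 on GFP vehicle, so that both FOXO1 arrays lay above GFP FSH, against the order of the brightest. The ratios of single members with the mutant, and of Psmd14 with active FOXO1, therefore depend on the probe set read. In FOXOA3 FSH against GFP vehicle the signs were the same for 3 of 4 members, and Psmd7 was at 0.22 and -0.19. In FOXOA3 FSH against FOXOA3-mDBD FSH, and in FOXOA3-mDBD FSH against GFP vehicle, they were the same for 2 of 4. Where on the transcript each probe set lies was not analysed here. The RefSeq table also lists 39 pseudogenes or like-named copies for 15 of the members, 10 of them for Psmb3 and 3 for Psmg4, and signal from such copies could not be separated from that of the gene.

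**Figure D4:**
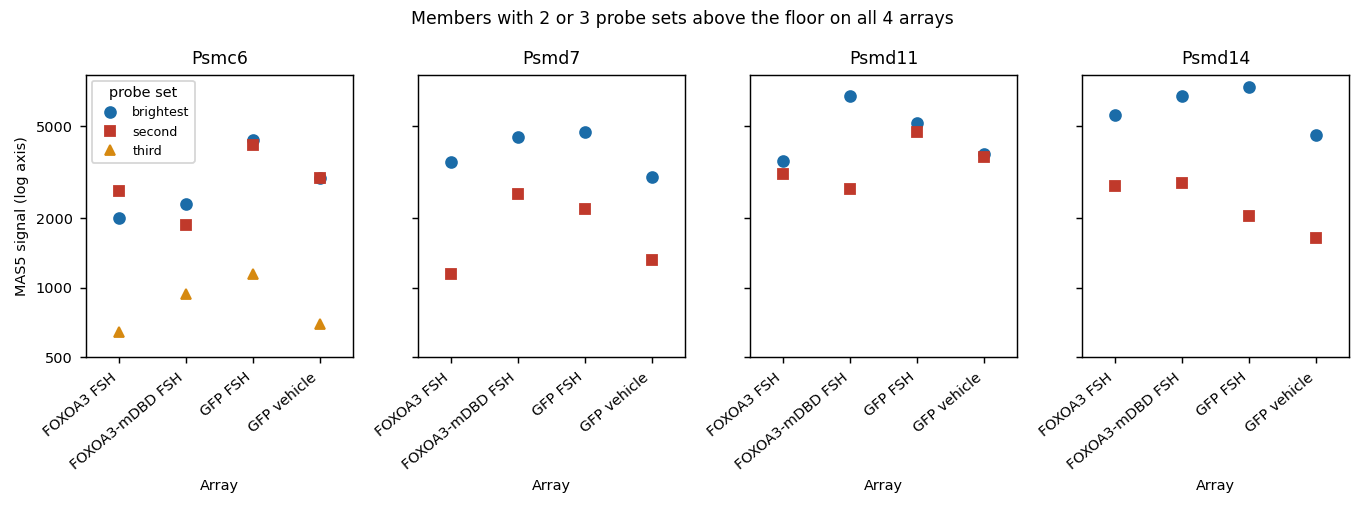
Points give the MAS5 signal (log axis) of each probe set above the floor on all 4 arrays for Psmc6, Psmd7, Psmd11 and Psmd14 (panels) on the 4 arrays. On FOXOA3-mDBD FSH the brightest probe set of Psmd11 reads 6728 and the second 2677, while on GFP vehicle they read 3777 and 3682.

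Genes that work with the proteasome were counted in lists. Of the immunoproteasome subunits and their interferon-induced PA28 activator, 4 of 5 genes had a higher signal with FSH, 2 of them by 2-fold or more, and the median was 0.86. Of all measured genes 49.8% were higher with FSH, and 6.84% by 2-fold or more. Psmb9 read 593.3 on FOXOA3 FSH, 600.4 on FOXOA3-mDBD FSH, 1077 on GFP FSH and 343.6 on GFP vehicle, and was 3.14-fold higher with FSH. Psmb8, which takes the place of Psmb5, read 977.4, 1132, 1052 and 445.6 and was 2.36-fold higher with FSH. Psmb8 was also 2.19-fold higher in FOXOA3 FSH against GFP vehicle, where Psmb5 was at 1.00-fold, while Psmb10 read 1693, 927.2, 1970 and 1083 and was 2.12-fold lower in FOXOA3-mDBD FSH against GFP FSH. Psme2, an activator subunit, was 1.86-fold lower there.

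Of 12 other activators and proteasome-bound factors 9 were on the array, of which 6 were higher with FSH, 0 of them 2-fold, and 1 was 2-fold lower (median 0.21). The shares of all measured genes were 49.8% higher, 6.84% 2-fold higher and 11.1% 2-fold lower. Pomp, the maturation factor of the core, read 2847 on FOXOA3 FSH, 5589 on FOXOA3-mDBD FSH, 5027 on GFP FSH and 2885 on GFP vehicle, a pattern like that of Psma2 that was seen after its values were known. The deubiquitinase Uchl5 read 720.7, 903.5, 1650 and 871.0, and was 2.29-fold lower in FOXOA3 FSH against GFP FSH. Adrm1, the ubiquitin receptor that binds Uchl5, read 178.1, 92.5, 119.6 and 383.0, with FOXOA3-mDBD FSH below the floor. It was 3.20-fold lower with FSH, a ratio that rests on a GFP FSH signal close to the floor. Zfand5, which activates the proteasome, was 2.33-fold higher in FOXOA3-mDBD FSH against GFP FSH, and Akirin2, which brings proteasomes into the nucleus, 2.07-fold.

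In the list of NRF1 and other factors tied to proteasome genes, 5 of 12 were higher and 7 lower with FSH (median -0.40). Of all genes 49.8% were higher and 50.2% lower. In the list 5 were at least 2-fold lower and 0 higher, where 11.1% and 6.84% of all genes were. Nfe2l1 itself read 636.9 on FOXOA3 FSH, 216.6 on FOXOA3-mDBD FSH, 437.3 on GFP FSH and 933.2 on GFP vehicle, and was 2.13-fold lower with FSH. Ddi2, the protease that activates NRF1, read 502.9, 98.5, 177.0 and 400.4, with FOXOA3-mDBD FSH below the floor. It was 2.26-fold lower with FSH and 2.84-fold higher in FOXOA3 FSH against GFP FSH. The small Maf partner Maff read 750.9, 506.0, 172.6 and 672.8, and Nfya, a subunit of the factor that binds CCAAT boxes, read 1792, 583.6, 601.4 and 1799. In FOXOA3 FSH against GFP FSH 5 of the 12 were 2-fold higher and 0 lower, where 11.1% and 6.99% of all genes were. In FOXOA3-mDBD FSH against GFP FSH 1 was 2-fold higher and 3 lower, where 12.5% and 19.1% of all genes were. These are transcripts, and NRF1 is also controlled by processing of the protein.

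Among ubiquitin shuttles and partners of the p97 segregase, 9 were on the array, with a median of 0.55 with FSH. Of these, 6 were higher (49.8% of all genes were) and 1 was 2-fold higher (6.84% of all genes). That gene was Nsfl1c, a p97 cofactor, at 894.6 on FOXOA3 FSH, 1621 on FOXOA3-mDBD FSH, 2732 on GFP FSH and 1144 on GFP vehicle. It was 2.39-fold higher with FSH and 3.05-fold lower in FOXOA3 FSH against GFP FSH, and the shuttle Ubqln2 was 2.46-fold lower in the same comparison. The shuttle Rad23b was 1.75-fold higher in FOXOA3-mDBD FSH against GFP FSH, and Ufd1 1.81-fold higher with FSH. Of the 6 genes for ubiquitin and its activating enzymes only Uba1 and Uba6 were read, at 1.15-fold higher and 1.19-fold lower with FSH. Uba6 was 2.07-fold lower in FOXOA3-mDBD FSH against GFP FSH. The ligase genes Trim63 and Fbxo32, known FOXO targets in wasting muscle, were below the floor on all 4 arrays.

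For comparison with other large complexes, the COP9 signalosome, which resembles the lid of the cap, had 7 of 9 genes higher with FSH and a median of 0.39, with none 2-fold apart. Cops2 was 1.87-fold higher with FSH and Cops4 1.30-fold, and in FOXOA3 FSH against GFP FSH Cops6 was 1.84-fold lower and Cops7a 1.33-fold higher. Past 2-fold in other comparisons were Cops2, 2.08-fold higher in FOXOA3-mDBD FSH against GFP vehicle, and Cops7a. Cops7a was 2.02-fold lower there, and 2.14-fold higher in FOXOA3 FSH against FOXOA3-mDBD FSH. The CCT chaperonin, which folds actin and tubulin, had 8 of 8 higher with FSH, with a median of 0.31 and none 2-fold apart. Of all measured genes 49.8% were higher with FSH, while 6.84% were 2-fold higher and 11.1% were 2-fold lower. In FOXOA3 FSH against GFP FSH all 8 CCT genes were lower (median -0.26), and 4 of 9 COP9 genes were higher and 5 lower (median -0.16). The shares of all genes were 52.4% higher and 47.6% lower. In FOXOA3-mDBD FSH against GFP FSH the CCT genes had 6 of 8 higher and a median of 0.46, where the proteasome median was -0.35. In that comparison 42.9% of all genes were higher. Cct8 was 2.07-fold higher there, Cct6a 1.68-fold and Cct5 1.53-fold, and Cct2 was 1.59-fold lower. In FOXOA3 FSH against GFP vehicle the COP9 and CCT medians were 0.09 and 0.01, near the 0.00 of the proteasome members. A small higher signal with FSH was thus not particular to the proteasome, and differences between these lists were not tested.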

How the data were processed

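Total RNA, 1 sample per group, had been labelled and read on rat arrays. The deposited table holds the authors' intensity values, linear and with 1 value for every probe set on each array. The submitters' processing notes name MAS5, a method that subtracts mismatch signal and leaves dim probe sets noisy, without version or settings.

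Of 31099 probe sets, 57 were controls. Platform annotation gave 1 gene symbol for 20826 of the others, several for 436 and none for 9780, and only the first kind was named. All 39 members matched the RefSeq table (GRCr8) by gene ID under the same symbol. Signals under the floor of 100.5 were set to that floor before taking log2. A gene was measured in a comparison if its higher signal was above the floor. Calls were folds of 2 or more, with 1.5 as a second mark. The steps were tested on simulated data. Python 3.11.15, numpy 2.4.6, pandas 2.3.3 and matplotlib 3.10.9 were used.

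With 1 array per group no p-value was computed, and precision is limited by that number. Members and lists were chosen with earlier results of these data known. By the rule for named genes, those given with all signals were the catalytic subunits (Psmb6 is no member), Psmd14, members past 2-fold and the 3 highest and 3 lowest of each comparison. Others named, such as Psma1, Psma5, Psmd4, Psmd11 and Pomp, were added after their values were seen. From each list, the 4 genes with the largest ratio were named. Alternatives were 2 other treatments of dim signals, a stricter filter on dim genes, quantile normalization, centring of each array, the mean of a gene's probe sets, the members without Psmc3ip, and 1.5-fold calls.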

Additional observations from a re-analysis of the deposited data

How the results depend on the processing

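No paired analysis was possible because each group had 1 array. Over all alternatives, the members' median log2 ratio lay between 0.42 and 0.70 for GFP FSH against GFP vehicle, between -0.64 and -0.37 for FOXOA3 FSH against GFP FSH, between -0.35 and -0.22 for FOXOA3-mDBD FSH against GFP FSH, between 0.00 and 0.04 for FOXOA3 FSH against GFP vehicle, and between 0.11 and 0.44 for FOXOA3-mDBD FSH against GFP vehicle. Only FOXOA3 FSH against FOXOA3-mDBD FSH changed sign, with -0.39 after centring and 0.019 after quantile normalization, beside 0.01 and 0.13 for all genes. Quantile normalization gave 0.42 with FSH and -0.37 for FOXOA3 FSH against GFP FSH. Centring brought the median of all genes to 0.04 for FOXOA3-mDBD FSH against GFP vehicle, otherwise -0.17, to 0.01 for FOXOA3 FSH against FOXOA3-mDBD FSH, which is otherwise 0.21, and to -0.04 for FOXOA3-mDBD FSH against GFP FSH, otherwise -0.16.

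Members at least 2-fold higher with FSH numbered 2, against 1 after quantile normalization and 4 after centring. Of all genes 6.84% were higher without these changes, and 7.42% and 8.2% with them in turn. For FOXOA3 FSH against GFP FSH the 4 lower members became 2 after quantile normalization and 7 after centring. Psmb1 at -0.87 and Psmc5 at -0.92 dropped out after quantile normalization. They became 3 with log2(signal + 16), where Psmc3ip was at -0.98, and 3 with the mean of probe sets, where Psmc6 was at -0.87. Of all genes 6.99% were lower without these changes, and 8.35%, 8.64%, 7.60% and 6.73% with them in turn. For FOXOA3 FSH against FOXOA3-mDBD FSH the 2 lower members became 1 after quantile normalization, 1 with log2(signal + 16) and 5 after centring. For FOXOA3-mDBD FSH against GFP vehicle, quantile normalization left 1 higher member, where 13.7% of all genes were higher. Centring gave 7 higher and 1 lower, where 17.5% of all genes were higher and 17.2% lower. The 7 higher of 39 members were thus near the share of all genes. The cause was not tested. At 1.5-fold, the counts were 21 higher and 1 lower with FSH, 18 lower for FOXOA3 FSH against GFP FSH, 12 lower for FOXOA3-mDBD FSH against GFP FSH, 4 higher and 7 lower for FOXOA3 FSH against FOXOA3-mDBD FSH, 1 higher for FOXOA3 FSH against GFP vehicle and 11 higher for FOXOA3-mDBD FSH against GFP vehicle, because the mark is lower. Of single members past 2-fold, none changed direction under these alternatives. All members lay well over the floor, and 1 array per group limits all of these values.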
